A study of Mus musculus with 12 samples.

Results

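The genes described here are 7 genes of osteoclast fusion and differentiation, chosen by symbol in the deposited gene table: Tnfrsf11a, Oscar, Nfatc1, Dcstamp, Ocstamp, Acp5 and Mmp9. All 7 were found, each as 1 feature of the 56980 in the table, and 6 of them passed the filter on low counts that left 12052 genes for testing. They were measured in mouse bone-marrow-derived macrophages, cells cultured from marrow in M-CSF, a growth factor, in 4 groups of 3 libraries. The groups were wild type (WT) with the solvent DMSO, WT with 25 nM bafilomycin A1 (BafA1), Trem2 knockout (Trem2 KO) with DMSO and Trem2 KO with 25 nM BafA1, each for 22 hours. BafA1 blocks the V-ATPase, the proton pump of lysosomes, and Trem2 is a lipid-sensing receptor of myeloid cells. Per the labels' protocols, bones of several mice were pooled for each biological replicate, all cells were differentiated with M-CSF, frozen, thawed and kept in M-CSF, and no RANKL is named among the additions. These are therefore macrophage cultures and not osteoclast cultures. The sources used here do not give the strain, the age of the mice or the deleted part of Trem2.

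Osteoclasts are the bone-resorbing cells that form when macrophage precursors receive M-CSF and RANKL. RANKL binds its receptor RANK, the product of Tnfrsf11a, while costimulatory receptors such as OSCAR, and the TREM2 complex with the adaptor Tyrobp (DAP12), signal through kinases such as Syk to calcium. Both inputs act on NFATc1, the transcription factor that switches on the fusion proteins DC-STAMP and OC-STAMP and effector enzymes such as TRAP (Acp5) and MMP-9. Mature osteoclasts place V-ATPase in the membrane that faces the bone, where it acidifies the resorption pit.

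The libraries held between 4407466 and 7074860 estimated counts, read from 3′ ends of mRNA, so that values do not scale with gene length. Levels are given in CPM, counts scaled to the size of each library, and 3 counts correspond to between 0.42 and 0.695 CPM in a single library. RNA integrity numbers were between 9.7 and 9.9. Trem2, the targeted gene, had 588 CPM ± 27.2 (SD, n = 3) in WT and 212 ± 11 in Trem2 KO with DMSO, and 401 ± 0.451 and 160 ± 19.5 with BafA1. It was lower in every KO library than in any WT library, but a 3′ tag outside the deleted part could still be counted, so this checks the genotype labels only in part. Macrophage markers (Adgre1, Cd68, Csf1r, Itgam, Lyz2, Mertk, Fcgr1 and Cd14) were all detected in each group, with summed levels between 5380 and 8760 CPM over the 12 libraries. Lyz2 made up most of the sum, with 4620 CPM in WT DMSO. In both genotypes only Cd68 had a higher mean with BafA1 than with DMSO, and the means of the others were lower. Fcgr1, picked after its values were seen, had 47.45 CPM with DMSO and 3.035 with BafA1 in WT, and 69.6 and 5.08 in Trem2 KO. Of 5 markers of mature osteoclasts, the calcitonin receptor Calcr was at 0 in both WT groups and had 2 counts in each KO group. The summed level of all 5 lay between 274 and 297 CPM with DMSO and between 506 and 531 with BafA1 in WT, and between 336 and 373 and between 340 and 419 in Trem2 KO. Most of it came from Atp6v0d2, a V-ATPase subunit that macrophages also express, with 274 CPM ± 11.2 in WT DMSO; this gene was singled out after its values were seen.

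Start regions were read from RefSeq's promoter table for 3 of the 7 members: Tnfrsf11a, Acp5 and Oscar. The table's build is GRCm38.p6, another build than the GRCm39 the submitters' processing notes name. The search left out the entries of 1 chromosome, so an entry of another member there would not have been read. Shown are the 250 bases before the annotated start of Tnfrsf11a, the member with the most counts, and of the 3 starts of Acp5, a classical target of NFATc1 and MITF, printed along the gene's own strand. Capitals mark matches, on either strand, to core motifs of factors that act in osteoclasts: AP-1 (TGANTCA), NFAT (GGAAA), PU.1 (GAGGAA) and MITF (TCANGTG).
Tnfrsf11a, chr1:105780473-105780722, plus strand: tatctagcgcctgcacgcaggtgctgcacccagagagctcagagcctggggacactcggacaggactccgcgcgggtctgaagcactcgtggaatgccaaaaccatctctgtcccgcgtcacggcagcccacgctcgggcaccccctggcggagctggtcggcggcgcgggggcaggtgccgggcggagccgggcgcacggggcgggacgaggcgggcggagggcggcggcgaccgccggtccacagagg
Acp5 start 1, chr9:22135747-22135996, minus strand: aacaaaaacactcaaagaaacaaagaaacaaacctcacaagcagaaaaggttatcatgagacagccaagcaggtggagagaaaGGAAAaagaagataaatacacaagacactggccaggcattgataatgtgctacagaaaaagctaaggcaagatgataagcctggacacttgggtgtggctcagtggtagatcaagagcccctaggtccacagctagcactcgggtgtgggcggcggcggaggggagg
Acp5 start 2, chr9:22131866-22132115, minus strand: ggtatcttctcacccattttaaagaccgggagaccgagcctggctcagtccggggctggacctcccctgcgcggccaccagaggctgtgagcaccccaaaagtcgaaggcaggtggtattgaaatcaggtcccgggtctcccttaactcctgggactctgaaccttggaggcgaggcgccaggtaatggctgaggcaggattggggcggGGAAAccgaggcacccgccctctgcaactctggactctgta
Acp5 start 3, chr9:22130599-22130848, minus strand: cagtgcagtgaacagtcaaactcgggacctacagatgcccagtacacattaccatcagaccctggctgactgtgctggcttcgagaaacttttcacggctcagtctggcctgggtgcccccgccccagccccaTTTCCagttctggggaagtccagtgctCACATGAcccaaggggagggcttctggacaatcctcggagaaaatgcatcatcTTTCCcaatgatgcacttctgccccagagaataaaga
The Tnfrsf11a window held no match to any of these letters. Each Acp5 window held the NFAT core, once at start 1 (first base at -167 from the start), once at start 2 (-41) and 2 times at start 3 (-117 and -37), and start 3 also held the MITF core (-90). Among 32851 RefSeq windows of the same length, 55.6% held the NFAT core, 12.2% the MITF core, 23.3% the PU.1 core and 6.75% the AP-1 core, so a match to the NFAT core is common. The Oscar window, not printed since the gene was hardly detected, held the NFAT core 3 times, the PU.1 core once and the MITF core once. The letters do not show that a factor was bound.

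Tnfrsf11a (ENSMUSG00000026321.9), which encodes RANK, was the most abundant of the 7 in 3′ tags in WT DMSO, with 176, 176 and 176 CPM in replicates 1 to 3. It had 34.2, 30.5 and 35.5 CPM in WT BafA1, 86.9, 79.8 and 102 in Trem2 KO DMSO, and 22.3, 27.1 and 29.4 in Trem2 KO BafA1. The 4 groups did not overlap and ran in the order WT DMSO, Trem2 KO DMSO, WT BafA1, Trem2 KO BafA1. BafA1 lowered it 5.29-fold in WT (log2 fold change -2.40, SE 0.102, edgeR adjusted p = 3.11e-14) and 3.44-fold in Trem2 KO (-1.78, SE 0.111, adjusted p = 2.41e-11). Without the drug it was 1.98-fold lower in Trem2 KO than in WT (-0.98, SE 0.0941, adjusted p = 3.31e-08). The knockout thus stood below WT under both treatments, with the smaller gap under BafA1. There it was 1.29-fold lower (-0.36, SE 0.119, edgeR adjusted p = 0.0266), and this call was lost when WT BafA1 replicate 1 or 3 or Trem2 KO BafA1 replicate 1 was left out (adjusted p 0.0827, 0.0933 and 0.179). The drop under BafA1 was smaller in Trem2 KO than in WT by 0.62 on the log2 scale (SE 0.152, adjusted p = 0.0128), a call lost without Trem2 KO BafA1 replicate 3 (adjusted p = 0.0536). In bulk RNA, fewer cells with a transcript and less of it per cell cannot be told apart.

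Oscar (ENSMUSG00000054594.14), the costimulatory receptor that pairs with the Fc receptor gamma chain, had 3 counts in all 12 libraries together. They lay in WT DMSO replicates 1 (1 count) and 3 (2 counts), and the other libraries were at 0. Every group was at or under 3 counts, so no fold is given and the gene was not tested.

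Nfatc1 (ENSMUSG00000033016.17), the central transcription factor of osteoclast formation, had 36.1, 36.7 and 38.3 CPM in WT DMSO and 26.9, 25.7 and 29.9 in WT BafA1. In Trem2 KO it had 36.5, 31.7 and 36.3 CPM with DMSO and 27.6, 29.3 and 29.6 with BafA1. Both BafA1 groups lay below both DMSO groups, while the genotypes overlapped within each treatment. BafA1 lowered it 1.35-fold in WT (log2 fold change -0.43, SE 0.103, edgeR adjusted p = 0.00139). In Trem2 KO the difference was -0.27 (SE 0.108, edgeR adjusted p = 0.0471), and 18 of 22 other settings gave an adjusted p above 0.05, over a range from 0.0272 to 0.435. With a library left out the call held only without WT BafA1 replicate 3 or Trem2 KO DMSO replicate 2. The genotype differences did not pass, at -0.09 (95% interval -0.31 to 0.12) in DMSO and 0.07 (-0.16 to 0.29) in BafA1, where the edgeR adjusted p was 0.543 and 0.692. Of the members for which a fold is given, Nfatc1 had the smallest in both BafA1 comparisons.

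Dcstamp (ENSMUSG00000022303.10), a membrane protein needed for the fusion of osteoclast precursors, had 39.5, 34.0 and 25.1 CPM in WT DMSO. It had 4.70, 3.76 and 3.30 CPM in WT BafA1 and 5.78, 2.86 and 2.55 in Trem2 KO DMSO. In Trem2 KO BafA1 it had 0.701 CPM in replicate 1, from 5 counts, and 0 in the other libraries. WT DMSO stood above all other groups, WT BafA1 and Trem2 KO DMSO overlapped, and Trem2 KO BafA1 lay below them all. BafA1 lowered Dcstamp 8.27-fold in WT (log2 fold change -3.05, SE 0.253, edgeR adjusted p = 1.02e-09). Without the drug it was 8.81-fold lower in Trem2 KO (-3.14, SE 0.272, adjusted p = 7.64e-09), a comparison that shares the WT DMSO libraries. In Trem2 KO the log2 fold change under BafA1 was -3.51 (SE 0.631, edgeR adjusted p = 0.000103), and that of the knockout against WT under BafA1 was -3.60 (SE 0.598, adjusted p = 0.000131). The values in Trem2 KO BafA1 rest on 1 library. Taken as summed counts they give ratios of 12.1 (51 against 5 counts, 95% counting interval 4.85 to 38.8) and 12.9 (72 against 5, 5.28 to 40.9). Without Trem2 KO BafA1 replicate 1 that group was at 0, and against a floor of 3 counts over the remaining libraries Dcstamp was at least 11.4-fold lower than in Trem2 KO DMSO and at least 12.2-fold lower than in WT BafA1. The responses of the genotypes to BafA1 were not shown to differ (difference -0.46, 95% interval -1.97 to 1.04, edgeR adjusted p = 0.764), and the interval is wide.

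Ocstamp (ENSMUSG00000027670.5), the related fusion protein, had 19, 27 and 22 counts in WT DMSO, which are 4.06, 4.55 and 3.26 CPM. It had 3, 2 and 6 counts in WT BafA1 (0.503, 0.301 and 1.04 CPM), and 1, 1 and 0 counts in each of the KO groups. WT DMSO stood above all other libraries. BafA1 lowered Ocstamp 6.35-fold in WT (log2 fold change -2.67, SE 0.454, edgeR adjusted p = 3.95e-05). Without the drug it was lower in Trem2 KO, with 2 counts against 68 in WT (WT to KO ratio 27.2, 95% counting interval 7.25 to 229, edgeR adjusted p = 7.87e-06). Under BafA1 the KO had 2 counts against 11 in WT (ratio 4.93, interval 1.07 to 45.7), which did not pass (adjusted p = 0.0823). In Trem2 KO the DMSO and BafA1 groups had 2 counts each, so no drug response could be measured there. Ocstamp passed the filter on low counts through WT DMSO, the group in which it was high.

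The fusion genes were highest in WT DMSO, the group in which markers of dividing cells were highest. The means of the other members were highest in that group too. The 6 markers Mki67, Top2a, Birc5, Ccna2, Ccnb1 and Cdk1, all detected in each group, summed to between 438 and 468 CPM in WT DMSO and between 89.8 and 113 in WT BafA1. They summed to between 35.7 and 47.8 CPM in Trem2 KO DMSO and between 29.8 and 34.3 in Trem2 KO BafA1. The mean marker sum was 97.9 CPM in WT BafA1 and 42.7 in Trem2 KO DMSO, where Dcstamp had means of 3.92 and 3.73 CPM. In Trem2 KO BafA1 the mean marker sum was 32.7 CPM and the mean of Dcstamp 0.234. The part of these markers in the values of Dcstamp and Ocstamp was not tested.

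Acp5 (ENSMUSG00000001348.16), the tartrate-resistant acid phosphatase (TRAP) that stains osteoclasts, had 3.42, 8.93 and 9.35 CPM in WT DMSO, where replicate 1 was low. It had 4.53, 4.21 and 4.52 CPM in WT BafA1, 6.24, 4.01 and 4.63 in Trem2 KO DMSO, and 2.38, 1.20 and 1.39 in Trem2 KO BafA1. Trem2 KO BafA1 lay below every other library, and the other 3 groups overlapped. BafA1 lowered Acp5 2.80-fold in Trem2 KO (log2 fold change -1.48, SE 0.394, edgeR adjusted p = 0.00418). The call in WT depended on the setting. There the difference was -0.75 (SE 0.298, adjusted p = 0.043), and it missed the threshold with DESeq2 (adjusted p = 0.199), with limma-voom (0.0813) and without any one of WT DMSO replicates 2 and 3 and the 3 WT BafA1 libraries (0.082 to 0.226). Under BafA1 it was 2.51-fold lower in Trem2 KO than in WT (-1.33, SE 0.385, edgeR adjusted p = 0.0135), with adjusted p = 0.0501 without Trem2 KO BafA1 replicate 2. Without the drug the genotype difference of -0.59 (95% interval -1.23 to 0.04) did not pass (adjusted p = 0.155), but it was -0.89 and passed (0.0143) when WT DMSO replicate 1 was left out. The BafA1 responses were not shown to differ (-0.74, 95% interval -1.77 to 0.30, adjusted p = 0.399).

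Mmp9 (ENSMUSG00000017737.3), a gelatinase that osteoclasts use on bone matrix and that granulocytes also store, had 13.0, 8.09 and 9.50 CPM in WT DMSO and 2.52, 2.26 and 1.39 in WT BafA1. It had 13.2, 5.73 and 4.86 CPM in Trem2 KO DMSO, where replicate 1 was high, and 0.14, 0.20 and 0.23 in Trem2 KO BafA1, from 1 count in each library. The DMSO groups overlapped, and WT BafA1 lay between them and Trem2 KO BafA1 with no overlap. BafA1 lowered Mmp9 4.84-fold in WT (log2 fold change -2.27, SE 0.342, edgeR adjusted p = 8.18e-06). In Trem2 KO it went from 108 counts to 3 (DMSO to BafA1 ratio 42.6, 95% counting interval 14.2 to 210, adjusted p = 2.03e-07). The genotypes differed in this drop. The fitted log2 response in Trem2 KO minus that in WT was -2.98 (SE 0.83, edgeR adjusted p = 0.0271). That call rests on 3 counts and was lost with limma-voom (adjusted p = 0.0749) and without WT DMSO replicate 2 (0.0519), WT BafA1 replicate 1 (0.0655) or 2 (0.0547), or Trem2 KO BafA1 replicate 1 (0.0877) or 3 (0.0571). The genotypes overlapped with DMSO and stood apart with BafA1. Under BafA1 the KO had 3 counts against 38 in WT (WT to KO ratio 11.3, interval 3.6 to 57.4, adjusted p = 0.00207). Without the drug the genotype difference was -0.36 (95% interval -0.96 to 0.24, adjusted p = 0.38), and it was -0.91 with adjusted p = 0.0191 without Trem2 KO DMSO replicate 1.

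Granulocyte and monocyte markers moved in part with Mmp9. The 10 granulocyte markers summed to between 155 and 174 CPM with DMSO and between 46.9 and 58.6 with BafA1 in WT, and to between 391 and 668 and between 69.7 and 123 in Trem2 KO, with Ly6g at 0 in WT DMSO and Trem2 KO BafA1 and Mpo at 0 in WT BafA1. The 5 monocyte markers, none at 0, summed to between 70.1 and 80.9 and between 2.35 and 3.82 CPM in WT, and to between 97 and 150 and between 6.41 and 9.96 in Trem2 KO. Most of the monocyte sum with DMSO came from Ccr2, with 63.8 CPM in WT and 67.3 in Trem2 KO. Most of the granulocyte sum came from S100a8 and S100a9, with 88.5 and 44.9 CPM in WT DMSO. The part of these markers in the values of Mmp9 was not tested.

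**Figure D1:**
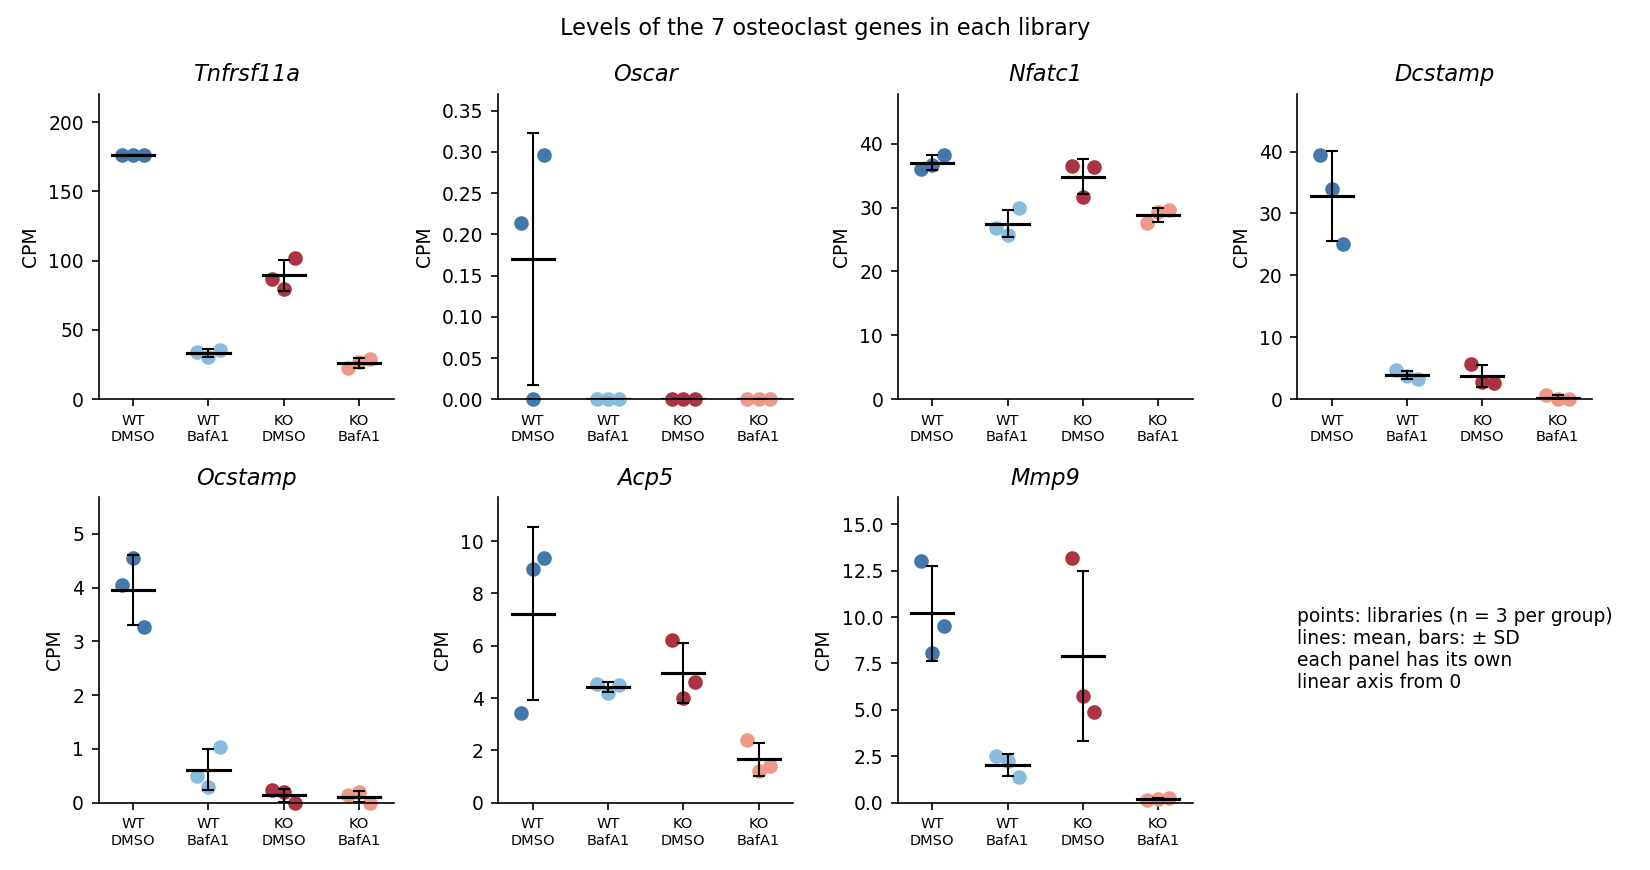
CPM of each of the 7 genes (y axis, a linear scale from 0 that differs between panels) in the 4 groups (x axis), with points for libraries, lines for means and bars for ± SD (n = 3). WT DMSO stands apart for Tnfrsf11a, Dcstamp and Ocstamp, Nfatc1 varies least, and Trem2 KO BafA1 is lowest for Acp5 and Mmp9.

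Counted over the members, BafA1 lowered 6 of the 6 tested in WT, against 25.3% of all genes tested called lower there. None was called higher, at an unadjusted p under 0.05 or with DESeq2 or limma-voom either, against 21.6% of all genes. In Trem2 KO, BafA1 lowered 5 of 6, against 20.7% lower and 19.8% higher over all genes. Trem2 KO was lower than WT for 3 of 6 in DMSO (Tnfrsf11a, Dcstamp and Ocstamp), against 16.5% lower and 13.8% higher over all genes. Under BafA1 it was lower for 4 of 6 (Tnfrsf11a, Dcstamp, Acp5 and Mmp9), against 14.2% lower and 12.5% higher. In these 3 comparisons too no member was called higher by edgeR, DESeq2 or limma-voom or at an unadjusted p under 0.05. The drug response differed between genotypes for 1 member upward (Tnfrsf11a) and 1 downward (Mmp9), against 4.88% and 3.93% of all genes. The counts include Ocstamp, which passed the filter only through WT DMSO, where it was high, so that its calls are not independent of the filter. Without it they were 5 of 5 in WT and 5 of 5 in Trem2 KO under BafA1, and 2 of 5 with DMSO and 4 of 5 with BafA1 between genotypes. The BafA1 counts include Acp5 in WT, whose call was lost in 8 of 21 other settings, and Nfatc1 in Trem2 KO, lost in 18 of 22. The comparisons share control groups and are not independent. The members, and the lists that follow, were chosen with earlier results of these data known. The shares over all genes therefore stand beside their counts as a description and not as a test.

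**Figure D2:**
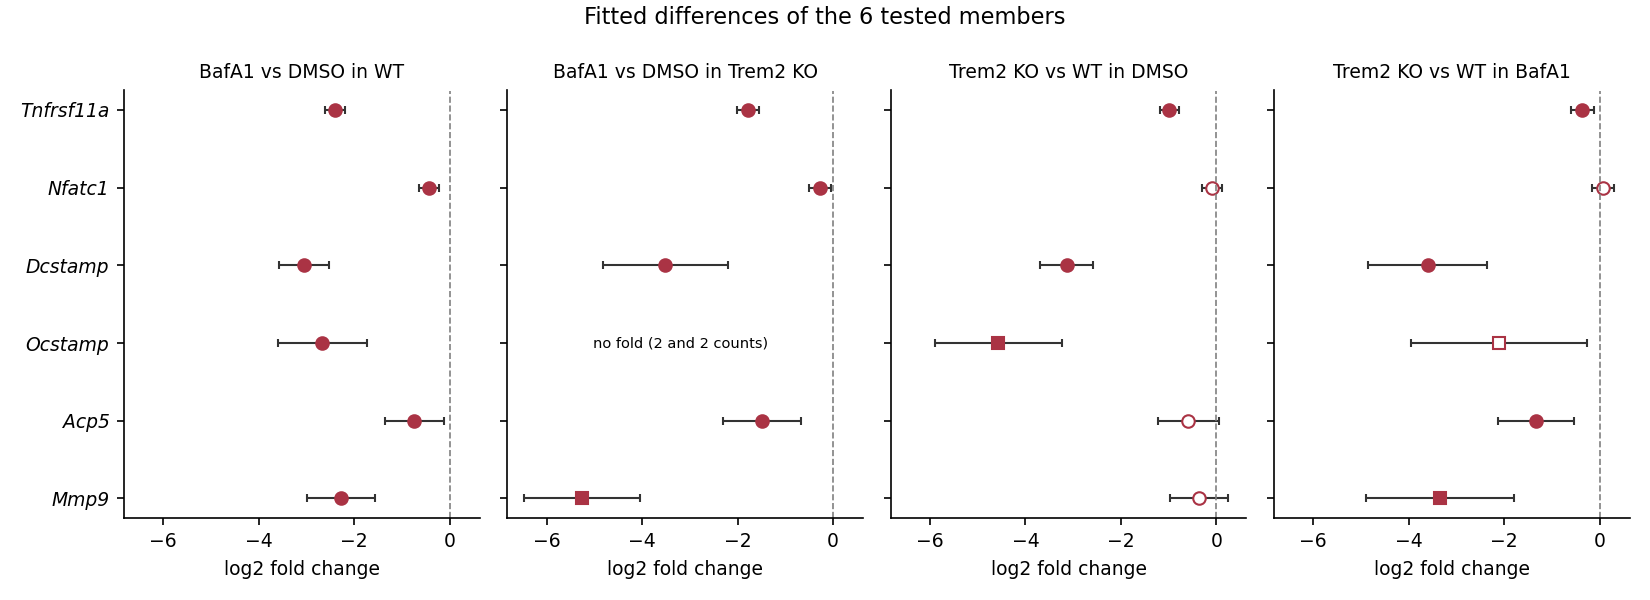
Fitted log2 fold changes (x axis) of the 6 tested genes in the 4 two-group comparisons, with bars for 95% intervals, filled symbols for calls at an adjusted p under 0.05 and squares where a group held 3 counts or fewer, whose fitted values depend on the prior count. All BafA1 calls lie left of 0, and no value is drawn for Ocstamp under BafA1 in Trem2 KO, where both groups held 2 counts.

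The lists of other osteoclast genes held calls in both directions. Beside their counts stand the shares over all genes tested, 21.6% raised and 25.3% lowered by BafA1 in WT and 19.8% and 20.7% in Trem2 KO, and 13.8% higher and 16.5% lower in Trem2 KO with DMSO and 12.5% and 14.2% with BafA1. Beside their median log2 fold changes under BafA1 stand those of all genes, -0.04 in WT and 0.0019 in Trem2 KO. Ligands and receptors upstream of the members numbered 10, of which 7 could be tested. Tnfsf11, which encodes RANKL, had at most 5 counts in a group, and Tnfrsf11b, its decoy receptor osteoprotegerin, at most 1. In WT, BafA1 raised 3 of the 7 and lowered 2, and in Trem2 KO it raised 2 and lowered 4, with medians of 0.18 and -0.70. Csf1, which encodes M-CSF, had 4.35 CPM ± 1.9 (SD, n = 3) with DMSO and 14.1 ± 3.43 with BafA1 in WT, and 22.5 ± 7.79 and 12.8 ± 2.25 in Trem2 KO. It rose in WT (log2 fold change 1.64, SE 0.288, edgeR adjusted p = 5.59e-05) and fell in Trem2 KO (-0.80, SE 0.238, adjusted p = 0.00925). Its receptor Csf1r fell in both, by 0.58 (SE 0.085) and 0.84 (SE 0.0865), and Tnf, an osteoclastogenic cytokine, rose in both, by 0.83 (SE 0.145) and 0.80 (SE 0.154). The genotype comparisons called 3 higher and 1 lower of 7 in DMSO and 1 higher and 2 lower in BafA1. Il1b was among those higher in DMSO (2.32, SE 0.579), but its libraries ran from 3.82 to 42.7 CPM in Trem2 KO DMSO and the call was lost without replicate 1 of that group (0.61, adjusted p = 0.268).

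Signalling genes between RANK or the costimulatory receptors and Nfatc1 numbered 23, of which 22 could be tested. BafA1 raised 8 and lowered 7 in WT, and raised 4 and lowered 8 in Trem2 KO, with medians of -0.08 and -0.07. Relb and Nfkb2, the subunits of the noncanonical NF-κB pathway, rose in WT by 0.80 (SE 0.126) and 0.63 (SE 0.122). In Trem2 KO Relb rose by 0.48 (SE 0.126), and Nfkb2 was at -0.06 (edgeR adjusted p = 0.761). Blnk, an adaptor of Syk signalling, fell by 0.63 in WT (SE 0.074) and 0.58 in Trem2 KO (SE 0.0751). Mapk14, the p38 kinase, fell by 0.55 (SE 0.156) and 0.86 (SE 0.158), and Lcp2, another adaptor, by 0.35 (SE 0.0952) and 0.55 (SE 0.0988). Trem2 KO was higher for 5 and lower for 1 in DMSO, among them Syk, with 88.8 CPM ± 4.86 (SD, n = 3) in WT and 142 ± 3.42 in Trem2 KO (0.67, SE 0.0799, edgeR adjusted p = 8.59e-07). Tec, a tyrosine kinase, was higher by 0.61 in DMSO (SE 0.149) and by 0.61 in BafA1 (SE 0.142). Under BafA1, 4 were higher and 4 lower, with Syk at 0.11 (adjusted p = 0.326), Map3k7 higher by 0.53 (SE 0.0933) and Rela lower (-0.47, SE 0.105).

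Transcription factors that promote osteoclast formation beside Nfatc1 numbered 13, with 12 tested, and BafA1 lowered 7 and raised 2 in each genotype, with medians of -0.41 in WT and -0.42 in Trem2 KO. Fos, the AP-1 subunit without which no osteoclasts form in mice, had 133 CPM ± 8.15 (SD, n = 3) with DMSO in WT and 16.8 ± 2.63 with BafA1. In Trem2 KO it had 93.6 ± 12.9 with DMSO and 7.76 ± 1.74 with BafA1. It fell by 2.98 in WT (SE 0.124, edgeR adjusted p = 3.11e-14) and by 3.61 in Trem2 KO (SE 0.149, adjusted p = 7.36e-14) on the log2 scale. Fosl2 fell too, by 1.18 (SE 0.112) and 1.40 (SE 0.124), while Jun rose by 0.81 in WT (SE 0.0976) and was at -0.21 in Trem2 KO (adjusted p = 0.0958). The genotype comparisons called 2 higher and 3 lower in DMSO and 1 higher and 5 lower in BafA1, with Fos lower in both (-0.51, SE 0.105, and -1.14, SE 0.178).

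Factors that restrain osteoclast formation, all 7 of which were tested, had 5 lowered and 2 raised by BafA1 in WT and 5 lowered and 1 raised in Trem2 KO, with medians of -1.14 and -1.04. Id1, an inhibitor of helix-loop-helix factors, fell by 2.62 in WT (SE 0.193) and 2.64 in Trem2 KO (SE 0.3), and Id3 by 2.13 (SE 0.118) and 1.80 (SE 0.115). In the genotype comparisons 2 were higher and 4 lower in DMSO, and 1 higher and 3 lower in BafA1. Id1 was lower in Trem2 KO in both, at -1.72 (log2, SE 0.183, edgeR adjusted p = 1.74e-07) in DMSO and -1.74 (SE 0.324, adjusted p = 0.000424) in BafA1, with 31.4 CPM ± 6.35 (SD, n = 3) in WT and 9.70 ± 1.69 in Trem2 KO with DMSO.

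Other genes of cell fusion numbered 14, with 12 tested, and BafA1 lowered 7 and raised 2 in WT and lowered 8 and raised 2 in Trem2 KO, with medians of -0.42 and -0.51. Adam8, a membrane protease linked to osteoclast fusion, had 634 CPM ± 33.6 (SD, n = 3) in WT DMSO and 157 ± 23.3 in WT BafA1, and fell by 2.01 in WT (SE 0.117, edgeR adjusted p = 3.04e-12) and by 1.70 in Trem2 KO (SE 0.119, adjusted p = 1.51e-10). Cd200 and the tetraspanin Cd9 went the other way. Cd200 rose by 1.83 in WT (SE 0.161) and 0.66 in Trem2 KO (SE 0.172), and Cd9 by 0.69 (SE 0.0704) and 1.15 (SE 0.0715). Between genotypes 1 was higher and 3 lower in DMSO, and 2 higher and 3 lower in BafA1.

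Genes of attachment and bone resorption numbered 14, with 13 tested, and BafA1 raised 7 and lowered 4 in WT, and raised 5 and lowered 5 in Trem2 KO, with medians of 0.42 and 0.03. Itgb3, the integrin β3 chain by which osteoclasts hold to bone, had 3.61 CPM ± 0.403 (SD, n = 3) with DMSO and 49.9 ± 5.91 with BafA1 in WT, and 8.16 ± 0.961 and 31.4 ± 2.42 in Trem2 KO. It rose 13.7-fold in WT (log2 fold change 3.78, SE 0.157, edgeR adjusted p = 3.11e-14) and 3.86-fold in Trem2 KO (1.95, SE 0.15, adjusted p = 6.19e-10). Its partner chain Itgav fell in both, by 1.77 (SE 0.0858) and 1.47 (SE 0.0933). Mmp14, a membrane-bound matrix protease, rose in WT (1.42, SE 0.216) and was at 0.16 in Trem2 KO (edgeR adjusted p = 0.518). Ctsk, the collagen-degrading cathepsin K, rose in WT (0.90, SE 0.21, adjusted p = 0.0011) and in Trem2 KO (0.72, SE 0.247, adjusted p = 0.024). In Trem2 KO its adjusted p was 0.0564 with DESeq2 and 0.113, 0.0587 or 0.0595 without Trem2 KO DMSO replicate 3 or Trem2 KO BafA1 replicate 1 or 3. In DMSO, Trem2 KO was higher for 7 and lower for 1, with Mmp14 at 1.82 (SE 0.216), Itgb3 at 1.16 (SE 0.211) and the chloride exchanger Clcn7 at 0.93 (SE 0.107). In BafA1 it was higher for 3 and lower for 4.

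**Figure D3:**
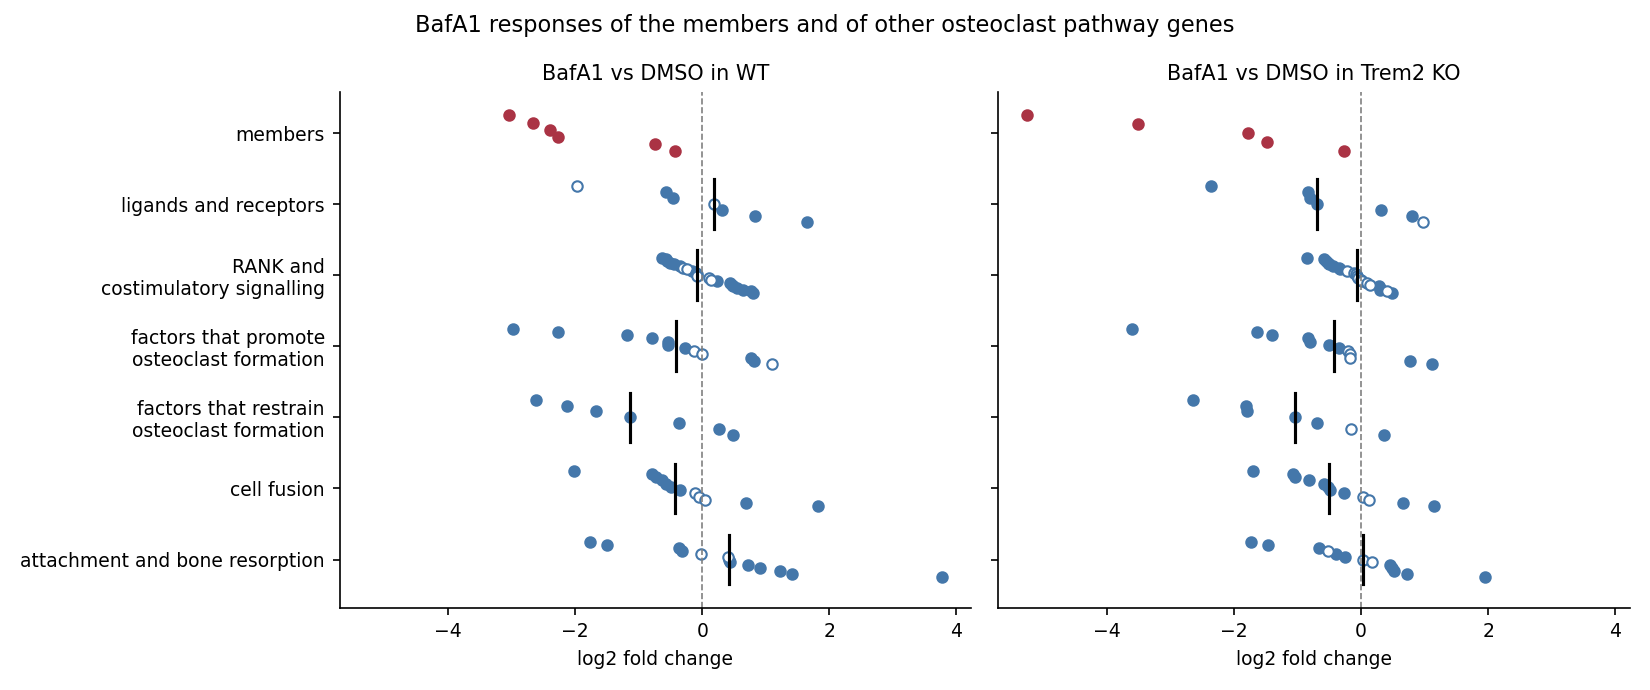
Fitted log2 fold changes under BafA1 (x axis) of the tested members and of the 6 lists of other osteoclast genes (y axis) in WT and in Trem2 KO, with a point per gene, filled where the adjusted p is under 0.05, and a vertical line at the median of each list. No median is drawn for the members, and in WT that of attachment and bone resorption genes is 0.42; Ocstamp is left out in Trem2 KO, where it had 2 counts in each group.

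The genes whose pattern over the 12 libraries lay nearest to each member were found among 8251 genes with at least 10 CPM in a group, by the root mean square difference of log2 CPM, each gene centred on its own mean. The values are descriptions, and low counts can widen the distance or, near the floor, flatten a pattern. Nearest to Tnfrsf11a were Cacna1d (0.13), Mef2c (0.16) and Itga6 (0.16), against a spread of Tnfrsf11a itself of 1.11 (SD of log2 CPM). Itga6, an integrin chain, had 650 CPM with DMSO and 126 with BafA1 in WT, and 298 and 83.1 in Trem2 KO. Mef2c, a transcription factor, had 344, 78.7, 183 and 59.8 CPM in the same order. Nearest to Nfatc1, whose own spread was 0.19, were Tpm3-rs7, Dhx9 and Dync1i2, each at 0.08, and Tpm3-rs7 is a copy of Tpm3, so that its counts may be shared with that gene.

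Both fusion genes lay nearest to genes of the cell cycle. Nearest to Dcstamp (own spread 2.16) were Ska1 (0.71), Ccnd1 (0.72) and Pclaf (0.75), which act at the kinetochore, in G1 and at replication forks. Ska1 had 10.0 CPM with DMSO and 1.27 with BafA1 in WT, and 1.09 and 0.14 in Trem2 KO. It thus reached the minimum of 10 CPM only through WT DMSO, where it was high. Dcstamp had 0 counts in Trem2 KO BafA1 replicates 2 and 3, where its log2 CPM depended on the prior count and Ska1 was at its lowest value. Ccnd1, which encodes cyclin D1, had 363 CPM with DMSO and 98.7 with BafA1 in WT, and 60.6 and 11.9 in Trem2 KO. Nearest to Ocstamp (own spread 1.33) were the mitotic genes Ttk (0.34), Nusap1 (0.34) and Prc1 (0.41). Nusap1 had 27.2, 5.31, 2.50 and 1.89 CPM in the same order. Each KO library held 0 or 1 counts of Ocstamp, so its log2 CPM there depended on the prior count. Since Ocstamp passed the filter through WT DMSO, its nearness to genes high in that group is not independent of the filter. Ttk, Nusap1 and Prc1 likewise reached 10 CPM only in WT DMSO.

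Acp5 (own spread 0.78) lay nearest to Itgal (0.36), Mxd4 (0.42) and H2-DMa (0.43). Nearest to Mmp9 (own spread 1.70) were Fos (0.55), Igfbp4 (0.57) and C5ar1 (0.60). C5ar1, the receptor of complement C5a, had 173 CPM with DMSO and 35.3 with BafA1 in WT, and 115 and 17.8 in Trem2 KO.

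**Figure D4:**
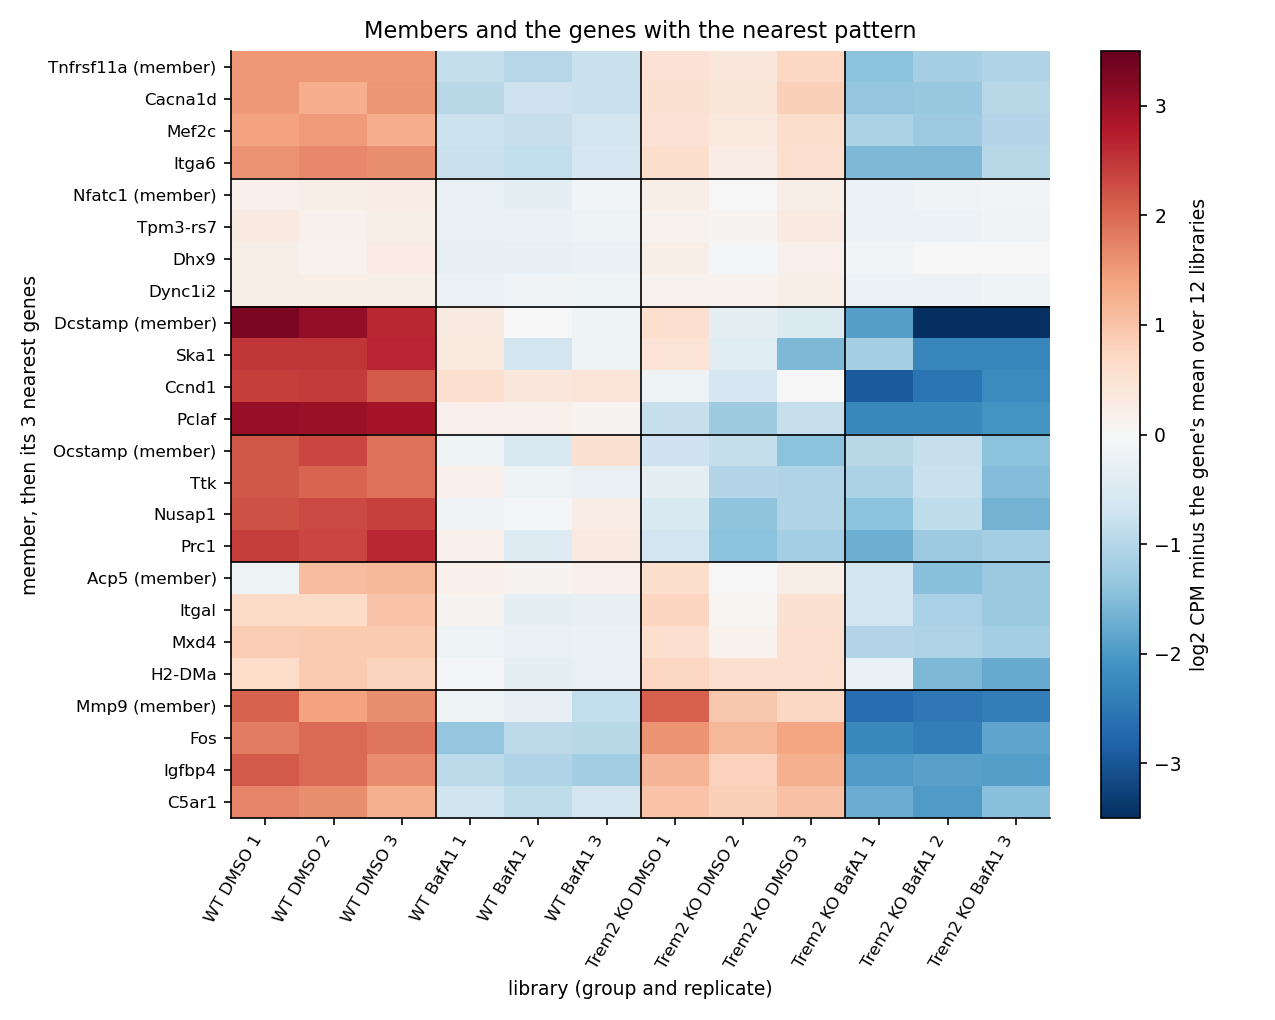
Log2 CPM minus each gene's mean over the 12 libraries (colour scale) for the 6 tested members and the 3 nearest genes of each (rows) in every library (columns, by group and replicate). Dcstamp, Ocstamp and their neighbours are high in WT DMSO, whereas Mmp9, Fos, Igfbp4 and C5ar1 are high in both DMSO groups.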

How the data were processed

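Levels and tests rest on the authors' deposited estimated counts, which are not normalized. The authors used Salmon and GRCm39, per the submitters' processing notes; the sources used here do not give versions, the annotation or the duplicate removal. Libraries were made with a 3′ kit with molecular identifiers, per the labels' protocols. Counts were rounded. The authors' deposited log2 CPM table, which a TMM recomputation (prior count 2) matched within 0.00045, was not used for tests. Genes were filtered with filterByExpr (minimum count 10, total 15) and tested by quasi-likelihood in edgeR 4.0.16 (R 4.3.3; TMM, 12 libraries in 1 fit, a mean per group, no block), with Benjamini-Hochberg adjustment over 12052 genes and a threshold of 0.05. Each SE is the absolute log2 fold change divided by the square root of the test's F statistic. The 95% intervals of log2 fold changes rest on these SEs. Counting intervals and the 3-count floor, summed over a group unless stated, cover counting error only.

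The members and lists were chosen with earlier results of these data known. Named were the members, Trem2, up to 3 called genes of each list and comparison with the largest fold and at least 10 CPM in a group, and the 3 nearest genes per member, each in any comparison; 1 gene that this rule took is not reported here. Other settings tried were DESeq2 1.42.0, limma-voom (limma 3.58.1), other scalings and filters, unrounded counts, the 6 libraries compared, a replicate block and each library left out. The fit was tested on simulated data. Pairs of replicates differed by more than sampling noise (chi-square per degree of freedom 2.16 to 5.63).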

Additional observations from a re-analysis of the deposited data

Results flagged for a closer look

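For 15 genes, all members or taken from the lists by the rule for named genes, the response to BafA1 differed between the genotypes, as tested by the difference of the responses itself in edgeR (log2 fold change in Trem2 KO minus that in WT, adjusted p under 0.05). Among the members these were Tnfrsf11a (0.62) and Mmp9 (-2.98). The upstream gene Csf1 had a difference of -2.45 (SE 0.374, adjusted p = 0.000246), with a rise in WT and a fall in Trem2 KO. Of the signalling genes, Nfkb2 (-0.69), Rela (-0.65) and Syk (-0.56) rose in WT and did not pass in Trem2 KO. Of the transcription factors, Jun (-1.02), Jund (-0.81) and Id2 (-0.65) differed; Jun and Id2 rose in WT and did not pass in Trem2 KO, and Jund was at 0.00 in WT and fell by 0.80 in Trem2 KO. Of the fusion genes, Cd200 had a difference of -1.17 and Cd9 of 0.46, both with a rise in each genotype, and Rac2 of -0.72, with a fall in each. Of the resorption genes, Itgb3 (-1.83), Mmp14 (-1.25) and Clcn7 (-0.78) rose less in Trem2 KO, where Mmp14 was at 0.16 (adjusted p = 0.518). Counted over the lists, the difference was higher for 1 and lower for 3 of 22 signalling genes and higher for 1 and lower for 2 of 12 fusion genes, against 4.88% higher and 3.93% lower of all genes tested. It was lower for 4 of 13 resorption genes, 2 of 12 promoting factors, 1 of 7 restraining factors and 1 of 7 ligands and receptors, and higher for 0 in each of these 4 lists by edgeR, DESeq2 and limma-voom; at an unadjusted p under 0.05, 1 resorption gene and 1 promoting factor were higher.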

How the results depend on the processing

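Over 22 alternatives, 28 differences of the 6 tested members gave 598 values, of which 558 kept both direction and side of the threshold, 37 lost a call, 2 gained one and 1 turned; 19 of the 28 kept both throughout. The exception in direction was Dcstamp's difference of responses, not called, which ran from -4.28 to 0.028 with a library left out, the last without Trem2 KO BafA1 replicate 2. With a filter of 10 CPM in 3 libraries, members lowered by BafA1 numbered 3 in WT and 3 in Trem2 KO, those lower in Trem2 KO under BafA1 numbered 2, and those with a lower response in Trem2 KO 0, since fewer members were tested; the last count was also 0 with limma-voom. With a library left out, members whose response differed numbered 0 to 1 upward and 0 to 1 downward, all genes higher in Trem2 KO under BafA1 numbered 925 (without WT BafA1 replicate 1) to 1575, and all genes whose response differed numbered 341 to 692 upward and 315 (without WT DMSO replicate 2) to 512 downward; the upward count dropped most without Trem2 KO BafA1 replicate 3 (341) and next without Trem2 KO DMSO replicate 2, WT DMSO replicate 2 and WT BafA1 replicate 3. No scaling turned a member's direction or moved the median of all genes by more than 0.0388. No source says that a replicate number marks a shared pool. Same-numbered DMSO and BafA1 libraries correlated at -0.005, 0.043 and 0.061 in WT and at 0.074, 0.164 and 0.116 in Trem2 KO, where each correlated best with its own number. With a replicate block, members lowered by BafA1 numbered 5 in WT (Acp5 at adjusted p = 0.0579) and 4 in Trem2 KO (Nfatc1 at 0.0504), and the other member counts were 3, 4, 1 and 1. For calls lost or gained with another setting the cause was not tested. Depth limits Oscar, Ocstamp in Trem2 KO, and Dcstamp and Mmp9 in Trem2 KO BafA1, where groups held 5 counts or fewer.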
